A study of Homo sapiens with 6 samples.

Results

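The 7 genes described here encode matrix metalloproteinases (*MMP1*, *MMP10*, *MMP2* and *MMP14*) and their tissue inhibitors (*TIMP1*, *TIMP2* and *TIMP3*), out of 17222 gene names in the count table. They were taken from the table by gene name, and the names were chosen by how their counts differed between the knockdown and control libraries of this same comparison, so their levels and changes are given as a description with no test. The RNA-seq compared H226 cells, an established line of human lung squamous carcinoma, 48 h after transient transfection. The control cells received ASO_CTRL and the knockdown cells received ASO_LINC#3, an antisense oligonucleotide against the long noncoding RNA *SWINGN* (*LINC00565*), with 3 libraries of each. Both groups were the same parental line and both went through a transfection, and 1 oligonucleotide stood for the knockdown and 1 for the control. The study describes its experiments in general as biological replicates, and the labels do not say what separates the libraries of a group. The targeted RNA itself was not analysed here.

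Matrix metalloproteinases are zinc-dependent enzymes that are made as inactive precursors and cleave collagens and other matrix proteins once the propeptide is removed. *MMP1* encodes the interstitial collagenase and *MMP10* encodes stromelysin-2, which is secreted but is not itself a collagenase and can activate procollagenases. *MMP2* encodes a secreted gelatinase, whereas *MMP14* encodes a membrane-anchored collagenase that activates proMMP2 with the help of TIMP2. The TIMP proteins bind the active site of these enzymes, and TIMP3 is held in the matrix and also inhibits several ADAM proteases.

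Reads counted on genes ranged from 3686828 to 10546786 per library, and ASO_LINC#3 replicate 3 had the fewest. Chi-square per degree of freedom between libraries was 13 and 14 for ASO_LINC#3 replicate 3 against replicates 1 and 2, and 2.5 between those. Between the control libraries it was 11.9, 8.25 and 6.94. ASO_LINC#3 replicate 3 thus stood apart from the other knockdown libraries, while the control libraries also differed among themselves. Values are CPM, the counts of a gene relative to library sizes scaled by TMM, and 1 read was worth from 0.0954 to 0.271 CPM. The simple epithelial keratins *KRT7*, *KRT8*, *KRT18* and *KRT19* summed to between 11696 and 12642 CPM in the control libraries and between 7103 and 12434 CPM in the knockdown libraries, with the highest of the latter in replicate 3. For the labelled squamous type, *KRT5* and *KRT6A* were analysed, of 8 markers, at a sum of 94.4 to 117 CPM in the control libraries and 63.5 to 78.9 CPM in the knockdown libraries, nearly all of it *KRT5*, while *KRT6A* had 0, 0 and 1 reads against 14, 5 and 4. The 4 mesothelial markers summed to between 634 and 834 CPM in the control libraries and between 209 and 323 CPM in the knockdown libraries, mainly through *CALB2*. The 3 fibroblast markers analysed, of 6, summed to 148 to 164 CPM in the control libraries and 119 to 161 CPM in the knockdown libraries, and 1 of them, *COL3A1*, passed both thresholds with a log2 fold change of -1.58. Of 4 leukocyte markers *CD68* and *CD14* were analysed, at a sum of 2.56 to 3.61 CPM and 3.53 to 8.68 CPM, with a mean of 1.37 against 4.13 CPM for *CD68* and 1.77 against 1.48 CPM for *CD14*. The 3 endothelial markers were not analysed here. The part of these marker differences in the results below was not tested.

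The promoter of the stromelysin gene was set beside those of the membrane-type protease and inhibitors by exact matches to short motifs. RefSeq promoters on GRCh38.p14 were matched for *MMP10*, *MMP14*, *TIMP1* and *TIMP3*, which is 4 of the 7 genes, and not for *MMP1*, *MMP2* and *TIMP2*. Each sequence gives the 250 bases before the gene start, 5′ to 3′ on the strand of the gene, and capitals mark every match, on either strand, to the AP-1 element TGANTCA, the TATA box TATAAA or the GC box GGGCGG. *MMP10* lies on the minus strand at chr11:102780629-102780878, and the others lie on the plus strand, *MMP14* at chr14:22836335-22836584, *TIMP1* at chrX:47582186-47582435 and *TIMP3* at chr22:32801455-32801704.
MMP10: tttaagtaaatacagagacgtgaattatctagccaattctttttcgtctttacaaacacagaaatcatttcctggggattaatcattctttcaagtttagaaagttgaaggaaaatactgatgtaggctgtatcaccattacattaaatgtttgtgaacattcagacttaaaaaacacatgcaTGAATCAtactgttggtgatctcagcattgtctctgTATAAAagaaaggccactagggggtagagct
MMP14: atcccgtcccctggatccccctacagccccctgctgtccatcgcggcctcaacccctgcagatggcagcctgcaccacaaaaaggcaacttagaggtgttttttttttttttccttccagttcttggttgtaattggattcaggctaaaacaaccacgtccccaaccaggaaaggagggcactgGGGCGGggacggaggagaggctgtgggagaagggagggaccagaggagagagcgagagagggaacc
TIMP1: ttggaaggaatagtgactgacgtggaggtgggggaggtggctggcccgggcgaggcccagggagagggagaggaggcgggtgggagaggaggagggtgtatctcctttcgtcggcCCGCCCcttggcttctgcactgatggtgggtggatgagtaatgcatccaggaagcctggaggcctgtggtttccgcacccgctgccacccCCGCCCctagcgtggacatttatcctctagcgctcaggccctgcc
TIMP3: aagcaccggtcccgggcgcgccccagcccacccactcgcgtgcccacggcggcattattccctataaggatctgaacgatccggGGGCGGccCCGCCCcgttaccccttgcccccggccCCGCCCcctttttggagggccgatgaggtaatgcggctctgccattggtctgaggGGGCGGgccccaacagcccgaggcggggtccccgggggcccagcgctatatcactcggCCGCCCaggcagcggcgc
The *MMP10* window held 1 AP-1 element starting 67 bases before the gene start, 1 TATA box starting 31 bases before it and no GC box. *MMP14* held 1 GC box, *TIMP1* held 2 and *TIMP3* held 5, and none of these 3 windows held an exact match to TGANTCA or TATAAA. Variants of the motifs, such as tgagtaa in the *TIMP1* window, were not searched for, so an AP-1 site of another spelling is not excluded. Among 35116 RefSeq promoters of the same length, 6.57% held the AP-1 element, 10.7% the TATA box and 42.6% the GC box. The GC content of the window was 34.4% in *MMP10*, 56.8% in *MMP14*, 64.8% in *TIMP1* and 72.4% in *TIMP3*. These matches describe the letters in the window and do not show that a factor binds there.

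The secreted proteases *MMP1* and *MMP10* were close to 0 in the control libraries and were detected in every knockdown library. *MMP1*, on chromosome 11 at 102660132 to 102668891 (GRCh37, minus strand), had 1, 0 and 1 reads in ASO_CTRL replicates 1, 2 and 3 and 34, 26 and 20 reads in ASO_LINC#3 replicates 1, 2 and 3. In CPM, *MMP1* was at 0.135, 0 and 0.0954 in the control libraries and at 5, 4.45 and 5.42 in the knockdown libraries. The groups of *MMP1* did not overlap, and the 3 knockdown libraries lay within a narrow range of each other. The mean CPM of *MMP1* was 0.0767 ± 0.0693 (SD, n = 3) and 4.96 ± 0.488 (SD, n = 3), and the ratio of the summed, depth-scaled counts was 58.1, with an exact 95% counting interval of 15.6 to 488. That interval covers counting error only. In bulk RNA, a change in the number of cells that express a gene and a change in RNA per cell cannot be told apart.

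*MMP10* lies beside *MMP1* in the metalloproteinase cluster of chromosome 11, at 102641233 to 102651359 (GRCh37, minus strand). *MMP10* had 1, 0 and 1 reads in the control libraries and 13, 11 and 9 reads in ASO_LINC#3 replicates 1, 2 and 3. The CPM of *MMP10* was 0.135, 0 and 0.0954 in the control libraries and 1.91, 1.88 and 2.44 in the knockdown libraries, again without overlap. Its mean CPM was 0.0767 ± 0.0693 (SD, n = 3) and 2.08 ± 0.314 (SD, n = 3). The ratio of its summed, depth-scaled counts was 24, with a 95% counting interval of 6.13 to 206. The cluster spans 9 genes between 102391239 and 102826461, of which *MMP1* and *MMP10* were analysed here and the other 7 were not analysed here. *MMP10* is closely related in sequence to *MMP3*, so reads from one could be counted on the other and its value is uncertain to that extent. *MMP1* shares 223 of its 2738 exon bases with the pseudogene *WTAPP1*, which lies on the opposite strand. The strand setting of the counting is not given in the sources used here, so reads in those shared bases cannot be told apart.

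**Figure D1:**
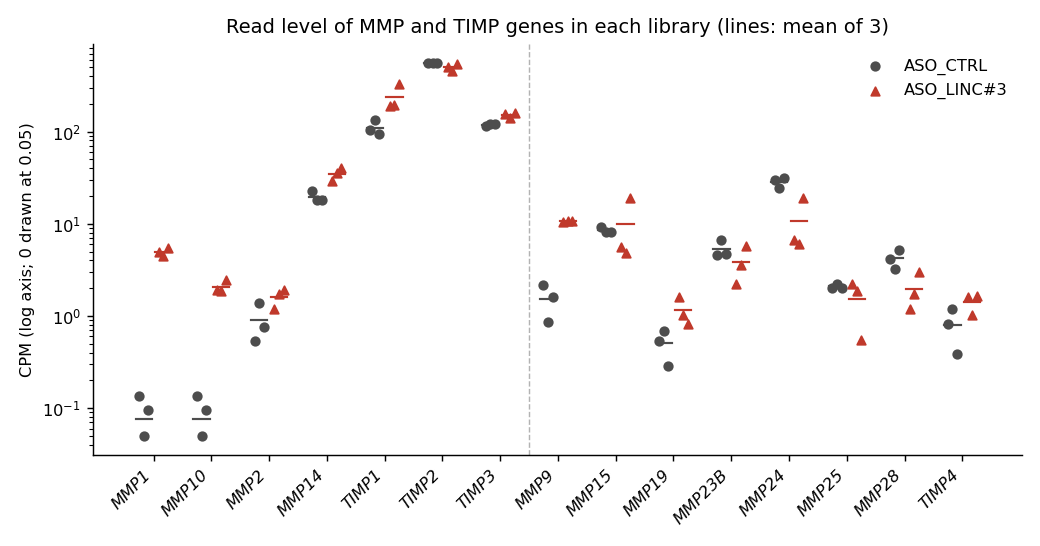
CPM of the 7 genes (left of the dashed line) and of 8 other MMP and TIMP genes in each library on a log axis, with ASO_CTRL as grey circles, ASO_LINC#3 as red triangles, lines at the mean of 3 libraries and a value of 0 drawn at 0.05. *MMP1* and *MMP10* sit near 0 in all control libraries and between 1.88 and 5.42 CPM in the knockdown libraries, whereas *TIMP2* stays between 451 and 559 CPM.

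*MMP2*, *MMP14* and the inhibitors did not form a group that moved against *MMP1* and *MMP10*. The gelatinase gene *MMP2*, on chromosome 16 at 55423612 to 55540603, had 4, 8 and 8 reads in the control libraries and 8, 10 and 7 in the knockdown libraries. Its CPM was 0.539, 1.38 and 0.763 against 1.18, 1.71 and 1.90, so that the groups overlapped. *MMP2* did not pass edgeR's filter on low counts and was not tested, and its ratio of summed counts was 1.81 with a 95% counting interval of 0.968 to 3.45, so a difference was not detectable at this depth. *MMP14*, on chromosome 14 at 23305769 to 23318250, was at 22.5, 18.2 and 18.2 CPM in ASO_CTRL replicates 1, 2 and 3 and at 29.2, 35.6 and 40.4 CPM in ASO_LINC#3 replicates 1, 2 and 3. Every knockdown library of *MMP14* lay above every control library. The mean CPM of *MMP14* was 19.7 ± 2.46 (SD, n = 3) and 35.1 ± 5.59 (SD, n = 3), and its fitted log2 fold change was 0.83 (SE 0.17). The single-library log2 changes of *MMP14* were 0.57, 0.85 and 1.04, and 0.66, 0.99 and 0.80 with offsets that remove trends on GC content and length from each library.

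Among the inhibitors, *TIMP1* was higher in the knockdown libraries, *TIMP3* slightly so and *TIMP2* slightly lower. Neither *TIMP3* nor *TIMP2* passed the thresholds given below. *TIMP1*, on the X chromosome at 47441807 to 47446188, was at 103, 132 and 95.1 CPM in the control libraries and at 190, 192 and 324 CPM in the knockdown libraries. The groups did not overlap, but ASO_LINC#3 replicate 3, the library with the fewest reads, stood far above the other 2. The mean CPM of *TIMP1* was 110 ± 19.2 (SD, n = 3) and 235 ± 76.9 (SD, n = 3), and the fitted log2 fold change was 1.10 (SE 0.22). The log2 changes of single libraries against the control mean were 0.80, 0.82 and 1.57 for *TIMP1*, and with offsets that remove GC content and length trends they were 1.03, 1.04 and 1.44. *TIMP1* lies within an intron of *SYN1*, on the opposite strand.

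*TIMP2*, on chromosome 17 at 76849059 to 76921469, encodes the inhibitor that also takes part in proMMP2 activation at the cell surface. Its CPM was 551, 550 and 559 in the control libraries and 498, 451 and 540 in the knockdown libraries. The knockdown libraries of *TIMP2* all lay below the control libraries, by a fitted log2 fold change of -0.16 (SE 0.12). *TIMP2* shares 224 exon bases with *CEP295NL* on the same strand and 367 with a long noncoding RNA on the other, and how reads in these bases were assigned is not given in the sources used here. *TIMP3*, on chromosome 22 at 33197691 to 33259028 within *SYN3*, was at 116, 121 and 120 CPM in the control libraries and at 156, 142 and 157 CPM in the knockdown libraries. The groups of *TIMP3* were also apart, with a fitted log2 fold change of 0.35 (SE 0.12). Groups without overlap were found in 36.1% of all tested genes, so little is read from this for *TIMP2* and *TIMP3*.

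Of the 7 genes, 6 passed edgeR's filter and 4 passed the thresholds of an adjusted p-value of 0.01 and a log2 fold change beyond 0.5, all of them higher (*MMP1*, *MMP10*, *MMP14* and *TIMP1*). *MMP1* and *MMP10* passed the filter only through the knockdown libraries. Over all 14660 genes tested with edgeR's quasi-likelihood test, 1106 (7.54%) passed both thresholds, 4.91% higher and 2.63% lower. The CPM of the groups did not overlap in any of the 6 genes tested, nor in 36.1% of all tested genes. Because the 7 genes were selected on this comparison, nothing is read from these counts. The fitted log2 fold change was 5.59 (SE 0.49) for *MMP1* and 4.32 (SE 0.59) for *MMP10*. The size of these values is uncertain because the control libraries hold 2 reads in all for each gene. They depend on the default prior count of edgeR's fit, not on the prior count of 2 used for single-library changes. The median of the 6 fitted values was 0.96, against 0.00 over all tested genes. With each library left out in turn, *MMP10* no longer passed without ASO_CTRL replicate 3. *MMP14* passed in 1 of 6 fits, the one without ASO_LINC#3 replicate 3, with log2 fold changes from 0.72 to 0.95. *TIMP1* passed in 2 of 6 fits, those without ASO_LINC#3 replicate 2 or 3, with log2 fold changes from 0.80 to 1.25.

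**Figure D2:**
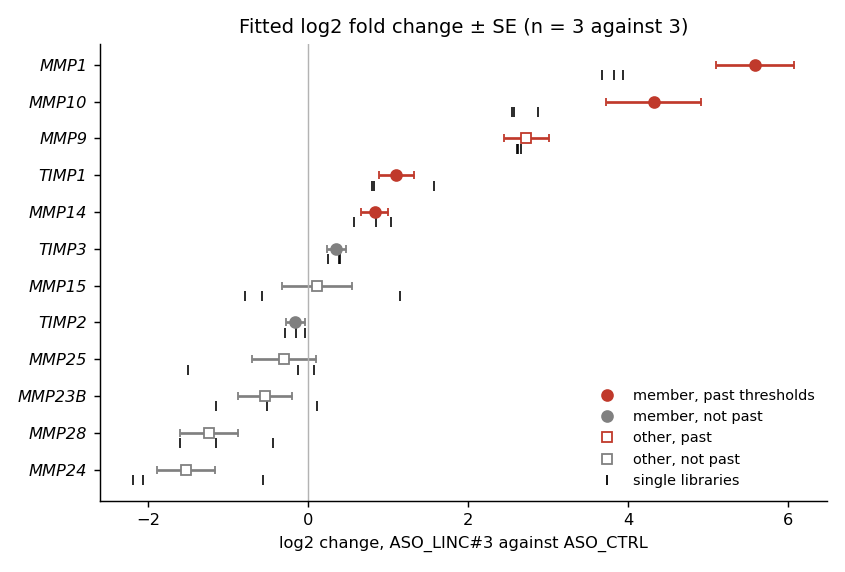
Fitted log2 fold change of ASO_LINC#3 against ASO_CTRL with its SE (horizontal bars, n = 3 against 3) for the tested MMP and TIMP genes, filled circles for the 7 genes and open squares for others, red where past both thresholds, with ticks for the single knockdown libraries. The fitted values of *MMP1* (5.59) and *MMP10* (4.32) lie beyond their single-library ticks, which use a prior count of 2, while *TIMP2* (-0.16) and *TIMP3* (0.35) lie close to 0.

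Levels of different genes were compared as CPM per kilobase of exon, which assumes reads spread along the transcript, although the cDNA was primed with oligo-dT and read positions were not analysed here. In the control libraries the order was *TIMP2* at 89.1 ± 0.809 (SD, n = 3), *TIMP1* at 76.0 ± 13.3, *TIMP3* at 25.9 ± 0.668, *MMP14* at 4.25 ± 0.532, *MMP2* at 0.190 ± 0.0922, *MMP10* at 0.0436 ± 0.0394 and *MMP1* at 0.0280 ± 0.0253 CPM per kilobase. *TIMP2* and *TIMP1* differed by no more than the spread of *TIMP1*, and *MMP10* and *MMP1* rested on 2 reads each. In the knockdown libraries *TIMP1* stood first at 163 ± 53.2 CPM per kilobase *TIMP2* was at 79.9 ± 7.16 and *TIMP3* at 33 ± 1.85, while *MMP1* at 1.81 ± 0.178 and *MMP10* at 1.18 ± 0.179 stood above *MMP2* at 0.339 ± 0.0796. Even there *MMP1* remained far below *MMP14*, which was at 7.59 ± 1.21 CPM per kilobase. Among the 7 genes the 3 inhibitors had the highest levels per kilobase in both groups.

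Relative to *TIMP2*, both *TIMP1* and *TIMP3* were higher in every knockdown library than in any control library. The ratio of *TIMP1* to *TIMP2* in CPM per kilobase was 0.802, 1.03 and 0.731 in the control libraries and 1.64, 1.83 and 2.58 in the knockdown libraries. The ratio of *TIMP3* to *TIMP2* was 0.283, 0.298 and 0.291 against 0.423, 0.425 and 0.393. Neither ratio overlapped between the groups, and no share over other pairs of genes was computed to set beside this. The share of *TIMP3* in the TIMP sum did overlap, at 13.5%, 12.8% and 14.4% in the control and 13.7%, 13.0% and 9.86% in the knockdown libraries. The ratio of *MMP14* to *TIMP2*, the pair that acts on proMMP2, was 0.0548, 0.0446 and 0.0438 in the control libraries and 0.0788, 0.106 and 0.101 in the knockdown libraries. By contrast, the ratio of *MMP14* to *TIMP1* averaged 0.0572 ± 0.0127 (SD, n = 3) in the control and 0.0484 ± 0.00946 (SD, n = 3) in the knockdown libraries and overlapped between them. The ratio of *MMP14* to *TIMP3* overlapped too, at 0.165 ± 0.0251 and 0.230 ± 0.0382 (SD, n = 3).

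**Figure D3:**
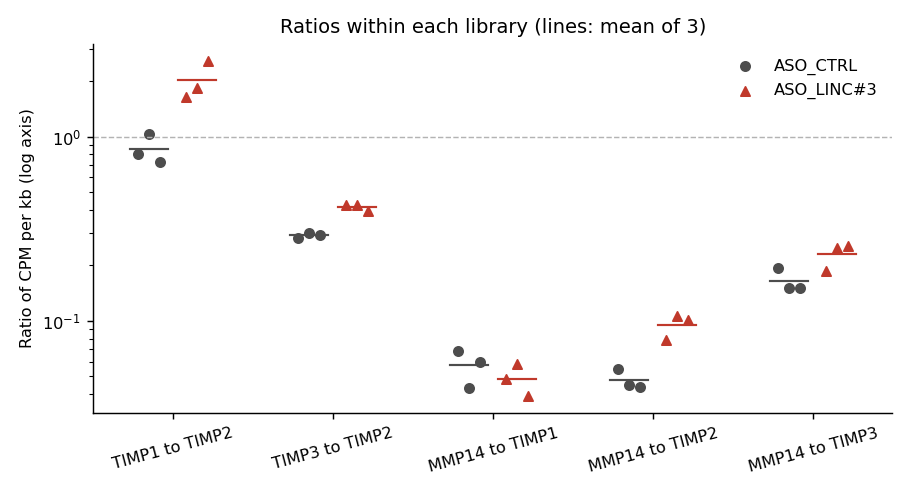
Ratios of CPM per kilobase between pairs of genes in each library on a log axis, with ASO_CTRL as grey circles, ASO_LINC#3 as red triangles, lines at the mean of 3 libraries and a dashed line at 1. The ratio of *TIMP1* to *TIMP2* averages 0.854 in the control and 2.02 in the knockdown libraries, whereas the ratio of *MMP14* to *TIMP1* overlaps between the groups.

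Of 20 other MMP and TIMP genes listed, 8 were analysed and 6 passed the filter, and 1 of these, *MMP9*, passed both thresholds, against 7.54% of all tested genes in either direction. The median log2 fold change over the 6 was -0.42. *MMP9* encodes the second secreted gelatinase, and it rose from 2.15, 0.860 and 1.62 CPM in the control libraries to 10.4, 10.6 and 10.8 CPM in the knockdown libraries. Its log2 fold change was 2.73 (SE 0.28) with an adjusted p of 0.000166 in edgeR's quasi-likelihood test. The filter asks for 3 libraries above its level, whatever their group. For *MMP9* 2 control and 3 knockdown libraries were above it, so the control group alone would not have met it. *MMP9* shares 430 exon bases with the antisense gene *SLC12A5-AS1*, and reads in these bases cannot be told apart without the strand setting. The membrane-type gene *MMP24* was at 29.9, 24.6 and 31.4 CPM in the control libraries and at 6.61, 5.99 and 19.2 CPM in the knockdown libraries, with ASO_LINC#3 replicate 3 well above the other 2 knockdown libraries. Its log2 fold change of -1.53 (SE 0.36) had an adjusted p of 0.0147 in edgeR and so missed the threshold, and without ASO_LINC#3 replicate 3 the change was -2.19 with an adjusted p of 1.07e-05. *MMP24* passed both thresholds with all libraries in DESeq2 (adjusted p 0.000349), in limma-voom (0.004), in edgeR with the GC and length offsets (0.00186) and in edgeR with the replicate number as a block, without (0.00505) and with (0.000787) those offsets. *MMP24* shares 806 exon bases with *MMP24OS* on the opposite strand, and without the strand setting reads in these bases cannot be told apart.

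The remaining family members were low or varied between libraries. *MMP28*, a secreted protease known as epilysin, was at 4.18, 3.27 and 5.25 CPM in the control libraries and 1.18, 1.71 and 2.98 CPM in the knockdown libraries, with an adjusted p of 0.0374 in edgeR. Without ASO_LINC#3 replicate 3 its adjusted p was 0.00662, with a log2 fold change of -1.59. Of its libraries, 3 control and 2 knockdown were above the level of the filter, so the knockdown group of *MMP28* alone would not have met it. *MMP15*, another membrane-type gene, was at 5.58 and 4.79 CPM in ASO_LINC#3 replicates 1 and 2 but at 19.2 CPM in replicate 3, against 9.29, 8.09 and 8.11 CPM in the control libraries. *MMP15* therefore had a log2 fold change of 0.11 (SE 0.44) over all libraries and -0.70 without ASO_LINC#3 replicate 3. *MMP23B*, which has a near-identical copy and is uncertain for that reason, had an adjusted p of 0.303 in edgeR, and *MMP25* had one of 0.638. Like *MMP28*, *MMP25* had 3 control and 2 knockdown libraries above the level of the filter. *MMP19* and *TIMP4* had at most 11 reads in a library and did not pass the filter.

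As a share of the summed CPM per kilobase of the 11 MMP genes analysed, *MMP24* made up 36.0%, 33.4% and 39.4% in the control libraries and 7.97%, 6.65% and 14.7% in the knockdown libraries. The *MMP24* values may include reads of *MMP24OS* in the exon bases they share. *MMP14* had 25.6%, 23.4% and 21.6% against 33.4%, 37.4% and 29.2%. *MMP9* had 4.86%, 2.19% and 3.81% against 23.6%, 22.1% and 15.5%, and *MMP1* had at most 0.259% against 9.62%, 7.89% and 6.62%. The secreted *MMP28* had 6.90%, 6.09% and 9.03% against 1.94%, 2.61% and 3.13%. *MMP10* had at most 0.403% against 5.73%, 5.20% and 4.64%, and *MMP23B* had 10.9%, 18.1% and 11.6% against 5.27%, 7.92% and 8.63%. Shares that did not overlap between the groups were higher for *MMP1*, *MMP10*, *MMP9* and *MMP14* and lower for *MMP28*, *MMP24* and *MMP23B*. Shares of one sum cannot all rise, so nothing is read from their lying on both sides. The level of *MMP23B* itself overlapped between the groups. It was 2.08, 3.04 and 2.12 CPM per kilobase in the control libraries and 1, 1.63 and 2.58 in the knockdown libraries. The levels of *MMP28* and *MMP24* did not overlap. The summed level of the 11 genes overlapped between the groups, at 19.0, 16.8 and 18.2 CPM per kilobase in the control libraries and 19.0, 20.6 and 29.9 in the knockdown libraries. The 4 TIMP genes summed to 186, 207 and 182 CPM per kilobase in the control libraries and 247, 237 and 347 in the knockdown libraries. The ratio of the MMP sum to the TIMP sum, 0.102, 0.0813 and 0.100 against 0.0769, 0.0867 and 0.0862, overlapped between the groups.

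**Figure D4:**
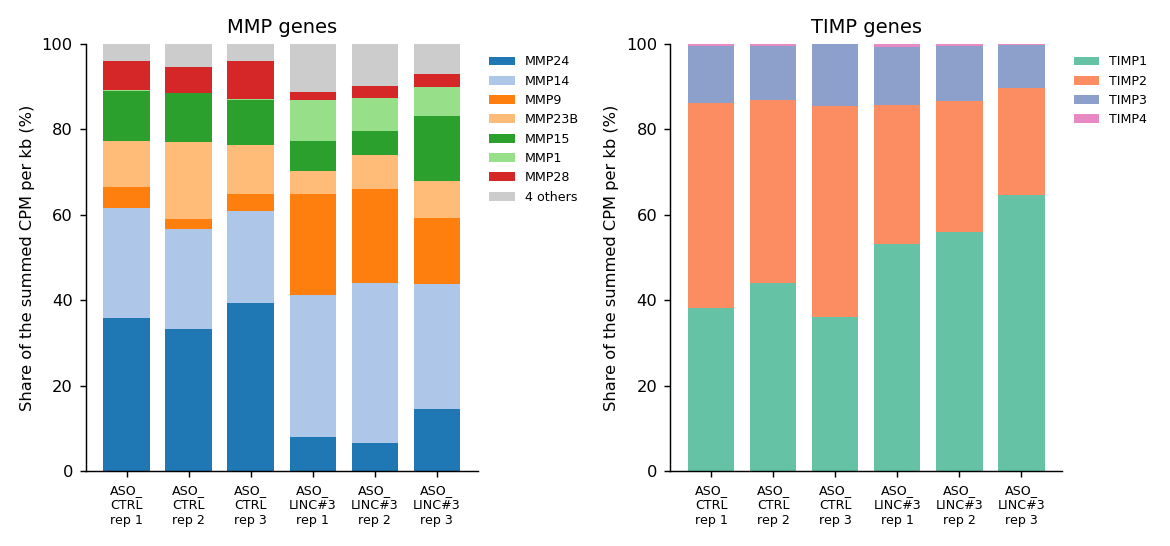
Share of the summed CPM per kilobase held by each of 11 MMP genes (left, 4 of them pooled in grey) and 4 TIMP genes (right) in each library, in percent. *MMP24* holds at least 33.4% in the control libraries and at most 14.7% in the knockdown libraries, and *TIMP1* holds at most 44% and at least 53.2%.

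The related ADAM and ADAMTS proteases moved in both directions. Of 28 listed, 20 were analysed and 17 tested, of which 3 rose and 2 fell past both thresholds, against 7.54% of all tested genes in either direction, with a median log2 fold change of -0.16. *ADAMTS6* rose by 1.84 on the log2 scale (SE 0.23, adjusted p 0.00056 in edgeR), *ADAM19* by 1.35 (SE 0.19, adjusted p 0.00117) and *ADAMTS1*, which cleaves proteoglycans, by 0.90 (SE 0.15, adjusted p 0.00248). *ADAMTS17* had a log2 fold change of -1.98 (SE 0.26, adjusted p 0.000644 in edgeR) and *ADAMTS3*, which processes procollagen, one of -1.19 (SE 0.23, adjusted p 0.0058). The sheddases *ADAM10* and *ADAM17*, which TIMP3 can inhibit, had log2 fold changes of 0.06 and 0.16 and did not pass. With each library left out in turn, *ADAMTS1* passed in 3 of 6 fits and *ADAMTS3* in 1.

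Of 13 listed genes for activators, other inhibitors and binding partners of MMPs, 11 were tested, and 2 rose and 1 fell past both thresholds, against 4.91% of all tested genes higher and 2.63% lower. Their median log2 fold change was 0.16. *TFPI2*, a secreted protease inhibitor, rose from 27.1, 33.7 and 30.7 CPM to 147, 159 and 122 CPM, by 2.23 on the log2 scale (SE 0.15, adjusted p 1.58e-05 in edgeR). *CD44*, a hyaluronan receptor that can hold MMP9 and MMP14 at the cell surface, rose by 0.86 on the log2 scale (SE 0.13, adjusted p 0.00156 in edgeR), passing in 4 of 6 fits with a library left out. The proprotein convertase gene *PCSK6* had a log2 fold change of -1.28 (SE 0.25, adjusted p 0.00619 in edgeR) and passed in 2 of 6 such fits. *FURIN*, which activates MMP14, had a log2 fold change of -0.11 (SE 0.22), and *RECK*, a membrane-anchored inhibitor of MMPs, one of 0.17 (SE 0.13), and neither passed.

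The AP-1 and ETS factors, whose binding elements occur in several MMP promoters, were mostly higher. Of 9 listed, 8 were tested and 6 rose past both thresholds, against 4.91% of all tested genes, none fell, and the median log2 fold change was 1.13. This list, like the other related lists, was chosen with earlier results of these data known, so nothing is read from its counts. *FOS* went from 0.943, 2.41 and 2.19 CPM to 16.3, 19.5 and 20.3 CPM, a log2 fold change of 3.32 (SE 0.28, adjusted p 5.37e-05 in edgeR). Like *MMP9*, *FOS* had 2 control and 3 knockdown libraries above the level of the filter. *FOSL1* rose by 1.69 on the log2 scale, *JUNB* by 1.59, *ETS1* by 1.38, *ETS2* by 0.88 and *JUN* by 0.65, with *JUN* passing in 1 of 6 fits and *ETS2* in 3 of 6 with a library left out. *FOSL2* and *JUND* had log2 fold changes of 0.30 and -0.03 and did not pass. No test of a relation between these factors and the MMP genes was made.

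**Figure D5:**
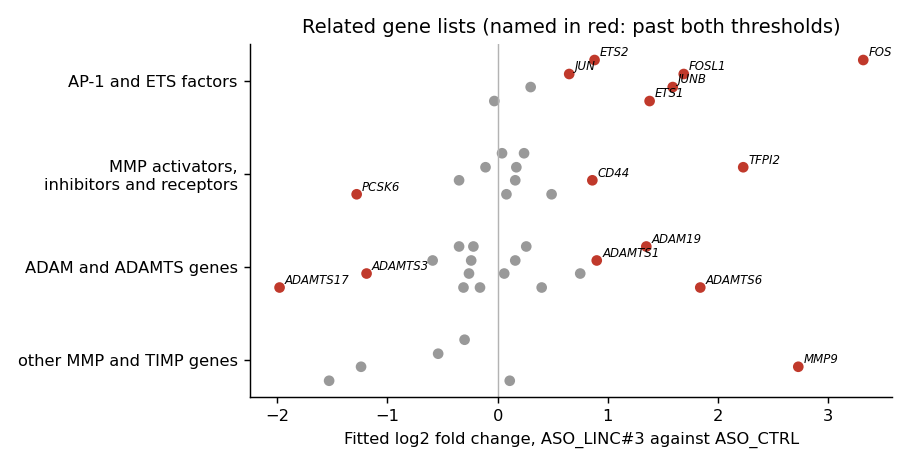
Fitted log2 fold change of every tested gene in the 4 related lists, with ASO_LINC#3 against ASO_CTRL on the horizontal axis, each point 1 gene, in red and named where past both thresholds. The AP-1 and ETS factors past the thresholds run from 0.65 to 3.32, while ADAM and ADAMTS genes past them lie on both sides of 0.

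The genes whose pattern over the 6 libraries was most like that of each member were found by the root mean square difference of log2 CPM, each centred on its own mean, among 10221 tested genes averaging at least 50 counts. Most of this likeness comes from the step between the groups, since the points share their libraries. For *MMP1* these were *NDRG1* (0.159), *ESM1* (0.271) and *SERPINB2* (0.275), with fitted log2 fold changes of 3.53, 3.94 and 4.08 against 5.59 for *MMP1*. For *MMP10* they were *KRTAP2-3* (0.151), *AC104135.3* and *MIR29B1* (both 0.234), with fitted log2 fold changes of 2.66, 2.41 and 2.40 against 4.32 for *MMP10*. With 0 or 1 read in each control library, the height of the step in *MMP1* and *MMP10* depends on the prior count of 2, and so do the genes found nearest to them. For *MMP2* they were *XPO1* (0.109), *WDR54* (0.177) and *SLC38A2* (0.179). The pattern of *MMP2* rests on 4 to 10 reads in a library, so counting error and the prior count affect which genes were found nearest to it. *PET112* (0.083), *NOL3* (0.09) and *IFI27* (0.094) were nearest to *MMP14*, and *WDR45* (0.14), *C11orf68* (0.141) and *FCHSD1* (0.147) to *TIMP1*. *MICALL1* (0.018), *C7orf55-LUC7L2* (0.021) and *NIPAL3* (0.028) were nearest to *TIMP2*, and *APOPT1* (0.028), *SLC7A6OS* (0.039) and *ZFAND5* (0.046) to *TIMP3*.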

How the data were processed

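Poly(A)-primed RNA-seq libraries of H226 cells were made with oligo-dT, and per the submitters' processing notes the authors used STAR, edgeR and hg19. The authors deposited read counts per gene name, raw and not normalized, for 6 libraries, and replicates were not pooled. The counting tool, annotation and strand setting are not given in the sources used here. The methods name BJ cells for the RNA-seq, whereas the labels name H226, which was followed.

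Reads assigned to no gene (24.8% to 28.1% of each library) were left out. Knockdown was set against control with edgeR 4.0.16 under R 4.3.3 (filterByExpr, TMM, quasi-likelihood F-test, Benjamini-Hochberg adjustment over 14660 genes), after being tested on simulated data, and the thresholds, an adjusted p of 0.01 and a log2 fold change of 0.5, are those of the methods. Single-library changes use log2 CPM with a prior count of 2. Ratios of summed counts carry exact binomial 95% intervals. The common biological coefficient of variation was 0.159, and replicates of a group differed by more than sampling noise (chi-square per degree of freedom from 2.5 to 14). DESeq2 1.42.0, limma-voom (limma 3.58.1), other scalings, filters and thresholds, a replicate block, a correction for GC content and length (87.2% of tested genes had both; splines with 5 degrees of freedom) and leaving out each library were the alternatives. Positions and exon lengths come from a GENCODE annotation lifted to GRCh37, in which 13370 names matched directly and 973 by an older symbol. Named genes are the 7 members, the related genes past both thresholds, other MMP and TIMP genes with at least 10 reads in some library, overlapping genes, the 3 nearest patterns and the cell type markers. *ADAM10*, *ADAM17*, *FURIN*, *RECK*, *FOSL2* and *JUND* were named after their values were seen. The members, the related lists and the markers were chosen with earlier results of these data known.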

Additional observations from a re-analysis of the deposited data

How the results depend on the processing

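Over all genes 1106 passed, and the count was 2465 at an adjusted p of 0.05, 384 with glmTreat, 1692 with the GC and length correction and 359 to 2616 with a library left out, the highest without ASO_LINC#3 replicate 3. Of the 7 genes 4 passed, and 2 did so with at least 10 counts in every library or with glmTreat, and 1 to 4 did with a library left out. Of the other MMP and TIMP genes 1 passed in edgeR, against 2 (with *MMP24*) in DESeq2, limma-voom and the GC and length correction, 3 at an adjusted p of 0.05, 1 to 3 with a library left out and 0 of 3 tested with at least 10 counts in every library, where *MMP9* was not tested and 1 had an unadjusted p below 0.05. With glmTreat 3 ADAM and ADAMTS genes and 1 gene for activators, inhibitors and receptors passed, and with a library left out 3 to 5 and 1 to 3 did. *MMP15* turned from 0.11 to -0.21 in limma-voom, 0.00 with the replicate block and ranged from -0.70 (without ASO_LINC#3 replicate 3) to 0.46 with a library left out. The share of calls that were higher was 65.1%, against 54.7% without ASO_LINC#3 replicate 3, and scalings alone left it between 65.1% and 66.7%.

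Same-numbered libraries did not deviate together (correlations 0.059, -0.149 and -0.18), and not every library correlated best with its own number, so the numbers were not taken as pairs. With the replicate block 656 genes passed, with 2 of the 7 genes, 2 of the other MMP and TIMP genes (*MMP24* among them, and 2 also with the GC correction) and 3 ADAM and ADAMTS genes. *MMP14* failed the thresholds in 7 of 17 alternatives and *TIMP1* in 6 of 17, while *TIMP2* and *TIMP3* passed in none of 17. *MMP1* and *MMP10* could not be tested with at least 10 counts in every library. Where the cause of a change is not given by the setting, it was not tested. A control level of 0 to 1 reads limits *MMP1* and *MMP10*, and the depth limits *MMP2*.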
